A study of Homo sapiens with 4 samples.

Results

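The genes that drive chromosome segregation were examined in U266, a human multiple myeloma line of malignant plasma cells, after exposure to trabectedin. The list holds 58 genes, chosen by function but with earlier results of these data known. It covers CDK1 with its cyclins and regulators, Polo, Aurora and NEK kinases, spindle checkpoint genes, kinesins, kinetochore, condensin and cytokinesis genes. Of these, 57 were measured among the 22411 genes of the array. BUB1B shares its probe set with PAK6 and is not analysed here. Each gene was read from 1 probe set (a transcript cluster of the Affymetrix HTA 2.0 array), and the 4 probe sets that carry the symbol of KIFC1 were reduced to the brightest.

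Cells were kept for 24 h in PBS, which the sample labels call untreated, or with trabectedin, an alkylating drug that binds the minor groove of DNA. The dose stands as 2.5 nM in the sample labels and as the same figure in micromolar in the treatment protocol. There were 2 control and 2 trabectedin arrays, all of 1 cell line. By the design text the cells came from separate experiments, which were treated with PBS or trabectedin, but the sources used here do not say which arrays share an experiment. All values are RMA levels on the log2 scale, so that a difference of 1 is a doubling of signal, and levels are compared between arrays and not between genes.

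To divide, a cell activates the kinase CDK1 by its cyclins, condenses its chromosomes and builds a spindle of microtubules. Kinesins move and shape that spindle, kinetochores hold the chromosomes on it, and the spindle checkpoint delays anaphase until each kinetochore is attached. Most of these genes are transcribed late in the cell cycle, from G2 into mitosis, and their RNA is known as a measure of how many cells of a culture are dividing. In a bulk sample, a different number of dividing cells and a different amount of RNA per cell cannot be told apart.

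Many late cell cycle promoters carry a short element near the transcription start, the cell cycle genes homology region (CHR), read by the DREAM and MuvB complexes, often together with CCAAT boxes upstream. RefSeq promoters on GRCh38.p14, from 250 bases before to 50 bases after a start, were at hand for 48 of the 57 genes. A CHR, searched as TTTGAA or TTCGAA on both strands, was found in 37 of these 48 genes, or in 40 of their 62 promoters (64.5%), against 13.7% of the promoters of all protein-coding genes and 16.4% of all promoters. A CCAAT box, also on both strands and able to overlap a CHR by 1 base, was found in 38 of the 48 genes (79.2%, against 42.1% of protein-coding genes), and both motifs in 1 and the same promoter in 29 (60.4%, against 7.28%). The windows of 30 bases below are examples from the genes with a match, among them the gene with the highest and the gene with the lowest difference described further on, to show where the element sits. CKAP2, also among the highest, had no match. Each is written 5′ to 3′ on the strand of its gene, with the CHR, or its reverse complement TTCAAA, in capitals.
NCAPG, chr4:17810932-17810961, plus strand: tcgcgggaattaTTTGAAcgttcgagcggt
MAD2L1, chr4:120066807-120066836, minus strand: tgcgtcgttactTTTGAAacgcttggcggg
CDK1, chr10:60778475-60778504, plus strand: ctcgcacttggcTTCAAAgctggctcttgg
CDC25B, chr20:3796260-3796289, plus strand: ctgctgttatttTTCGAAtatataaggagg
ANLN, chr7:36389830-36389859, plus strand: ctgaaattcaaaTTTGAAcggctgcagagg
KIF11, chr10:92593090-92593119, plus strand: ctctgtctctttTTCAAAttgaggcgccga
MKI67, chr10:128126435-128126464, minus strand: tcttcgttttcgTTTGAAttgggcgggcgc
KIF4A, chrX:70290058-70290087, plus strand: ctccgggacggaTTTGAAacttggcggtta
PLK1, chr16:23678848-23678877, plus strand: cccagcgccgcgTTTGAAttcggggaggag
The first base of the element lay 35 bases upstream of the start in NCAPG, 29 in PLK1 and in MKI67, and 24 bases downstream in MAD2L1. The 37 genes with a CHR had a median log2 difference of 0.28 between trabectedin and control, from -0.30 to 0.83, and the 11 genes without one had a median of 0.32. A match is a stretch of letters, and no binding was measured.

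The arrays were alike in general level, with medians over all probe sets of 5.19 to 5.37. Plasma cell markers were present, with the 10 of 10 listed genes at a median of 12.36 to 12.98 on the arrays, whereas the 10 measured markers of other blood cells had medians of 4.67 to 4.78, below the median gene of each array. The lowest plasma cell marker was MZB1, at a mean of 6.34. Over all genes the correlation was 0.992 between the control arrays and 0.992 between the trabectedin arrays. Between the groups it was 0.986 for replicate 1 and 0.992 for replicate 2, and 0.984 and 0.985 for arrays of different number.

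After trabectedin the mitotic genes had, on the whole, slightly higher levels, and the median difference was smaller than the median gap between arrays of one group. The mean difference was above 0 in 49 of 57 genes, against 71% of all genes, and the median log2 difference was 0.30, against 0.10 over all genes. It ranged from -0.30 for PLK1 to 0.83 for NCAPG. When the arrays were scaled to 56 ribosomal protein genes, every gene's difference was lowered by 0.21. Then 37 of the 57 were above 0, with a median of 0.09 against -0.11 over all genes. The distance of the mitotic genes from all genes, 0.20, cannot change under a shift that is the same for every gene.

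No mitotic gene passed the test without a replicate block. By limma with Benjamini-Hochberg adjustment over all genes, 0 of 57 were higher and 0 lower at an adjusted p under 0.05, as were 0% of all genes, and the smallest adjusted p was 0.122, for MAD2L1. With the replicate number as a block the call changed for 8 mitotic genes, CDC25B, CDK1, CKAP2, KIF2C, KIFC1, MAD2L1, NCAPG and PLK4, which were then called higher (against 2.23% of all genes), and 0 were called lower (against 3.98%). The adjusted p values given gene by gene are those without the block. At an unadjusted p under 0.05, limma gave 9 mitotic genes as higher (15.8%, against 7.3% of all genes) and 0 as lower (against 6.7%), and the methods' t-test gave 4 (against 6.25% of all genes) and 0 (against 4.43%). Both trabectedin arrays lay above both controls in 11 genes, or 19.3%, where 35.8% of all genes did so, and in 0 genes did both lie below, where 13.5% of all genes did. In the other 46 the groups overlapped. The rule of 1.5-fold that the study's methods use was met by 6 mitotic genes upward (10.5%, against 2.8% of all genes) and by 0 downward (against 4.63%). All 57 mitotic genes were above the median level of all genes, so these shares set them beside many genes of lower signal. Among the 11205 genes above that level the median log2 difference was 0.10. An exact permutation test over these arrays cannot give a p below 0.333.

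**Figure D1:**
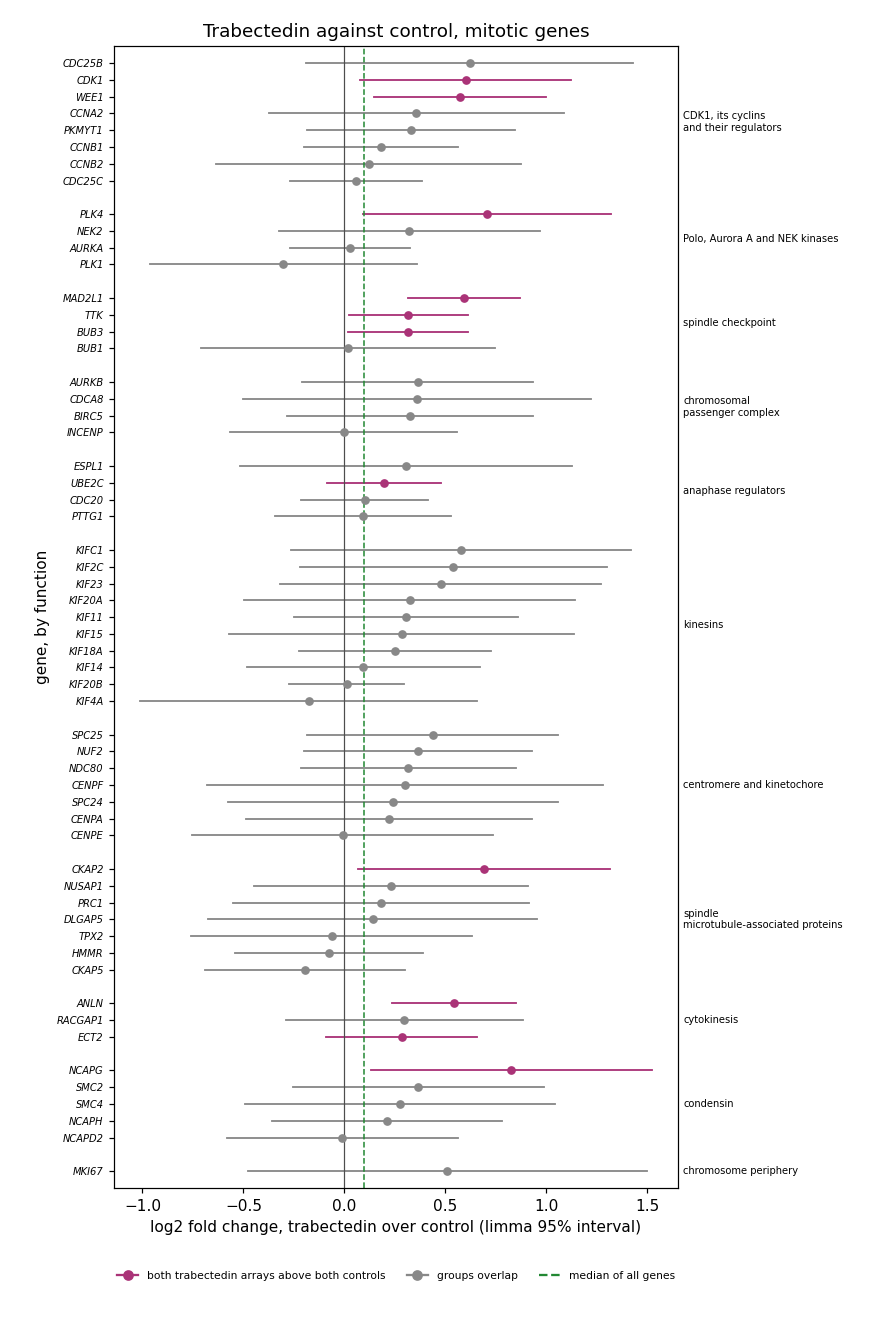
Log2 fold change of trabectedin over control for each of the 57 mitotic genes, by function, with limma's 95% interval; the dashed line is the median of all genes (0.10). Points are above 0 for 49 genes (37 after scaling to ribosomal protein genes), most intervals cross 0, and the 11 genes drawn in colour had both trabectedin arrays above both controls.

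All 8 measured genes of the group of CDK1, its cyclins and their regulators had a mean difference above 0, with a median of 0.34 (0.14 scaled to ribosomal protein genes). CDK1, the kinase that starts mitosis, was at 10.73 and 10.29 in control and at 11.26 and 10.97 after trabectedin. Its groups were apart, with a difference of 0.60 (SE 0.20, 95% interval 0.08 to 1.12, adjusted p = 0.301), or 1.52-fold. WEE1, the kinase that holds CDK1 inactive by phosphorylation, was at 11.00 and 11.36 in control and at 11.69 and 11.82 after trabectedin, also apart (0.57, SE 0.16, adjusted p = 0.243). Thus CDK1 and its inhibitor WEE1 had mean differences above 0 of about the same size. Neither passed the test without a replicate block, and with it the limma adjusted p was 0.0417 for CDK1 and 0.0517 for WEE1.

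CDC25B, a phosphatase that removes the inhibitory phosphate from CDK1, was at 9.71 and 9.17 in control and at 10.41 and 9.70 after trabectedin. Its difference of 0.62 (SE 0.31, adjusted p = 0.453) reached 1.5-fold, but trabectedin replicate 2 was level with control replicate 1 and the groups overlapped. CCNB1, which encodes cyclin B1, the partner of CDK1 in mitosis, was at 11.52 and 11.27 in control and at 11.68 and 11.48 after trabectedin, a difference of 0.18 (SE 0.15, adjusted p = 0.612) that became -0.03 when scaled to ribosomal protein genes. The other 4 genes, CCNA2, CCNB2, CDC25C and PKMYT1, had overlapping groups and differences of 0.06 to 0.36.

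The 4 genes of Polo, Aurora A and NEK kinases differed from one another, with a median of 0.18 that was below 0 (-0.03) when scaled to ribosomal protein genes. PLK4, the kinase that starts centriole duplication, was at 9.90 and 9.64 in control and at 10.77 and 10.18 after trabectedin, with the groups apart (0.71, SE 0.23, adjusted p = 0.301). PLK1, which acts in mitotic entry, spindle assembly and cytokinesis, had the lowest difference of the 57 genes. It was at 14.38 and 13.74 in control and at 13.90 and 13.61 after trabectedin (-0.30, SE 0.25, adjusted p = 0.621), the groups overlapped, and without control replicate 1 the difference was 0.02. AURKA, a kinase of the spindle poles, was at 11.03 and 10.89 in control and at 10.99 and 11.00 after trabectedin, a difference of 0.03 (95% interval -0.27 to 0.33) that became -0.18 when scaled to ribosomal protein genes and -0.02 when quantile normalization was repeated. NEK2, a centrosome kinase, differed by 0.32, with overlapping groups.

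Of the 4 measured spindle checkpoint genes, 3 had both trabectedin arrays above both controls, as did 35.8% of all genes. MAD2L1 encodes MAD2, the protein that binds and holds back CDC20. It was at 9.26 and 9.20 in control and at 9.85 and 9.80 after trabectedin, a difference of 0.59 (SE 0.11, 95% interval 0.31 to 0.87), far wider than the gap between arrays of one group. TTK, the kinase also called MPS1 that starts checkpoint signalling, was at 10.16 and 10.03 in control and at 10.39 and 10.44 after trabectedin (0.32, SE 0.11, adjusted p = 0.331). BUB3, which carries BUB1 to the kinetochore, was at 11.84 and 11.83 in control and at 12.23 and 12.08 after trabectedin, also with a difference of 0.32. BUB1 itself, a kinase of the kinetochore, overlapped, with a difference of 0.02 and a 95% interval of -0.71 to 0.74.

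The chromosomal passenger complex corrects faulty attachments of chromosomes through the kinase Aurora B. AURKB, which encodes that kinase, was at 9.20 and 8.83 in control and at 9.61 and 9.15 after trabectedin (0.36, SE 0.22, adjusted p = 0.521), with overlapping groups. CDCA8 (borealin) and BIRC5 (survivin), its partners, differed by 0.36 and 0.32, and INCENP, the scaffold of the complex, by -0.0043. In none of the 4 were the groups apart, where 35.8% of all genes were apart upward and 13.5% downward. Replicate 2 was below replicate 1 in both groups in all 4, against 25.4% of all genes.

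Among the anaphase regulators the differences were small. ESPL1, which encodes separase, the protease that cleaves cohesin, was at 9.19 and 8.48 in control and at 9.42 and 8.86 after trabectedin (0.30, SE 0.31, adjusted p = 0.689). CDC20, an activator of the anaphase-promoting complex, and PTTG1 (securin), the inhibitor of separase, differed by 0.10 and 0.09. UBE2C, the ubiquitin-conjugating enzyme of that complex, was at 6.69 and 6.67 in control and at 6.93 and 6.83 after trabectedin. Its groups were apart, with a difference of 0.20 (limma adjusted p = 0.489) that became -0.01 when scaled to ribosomal protein genes. The median of the 4 genes was 0.15, and -0.06 when scaled to ribosomal protein genes.

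None of the 10 kinesins had its groups apart, where 35.8% of all genes were apart upward and 13.5% downward. Replicate 2 was below replicate 1 in both groups in 9 of the 10, against 25.4% of all genes. Of the 10 mean differences 9 were above 0, and the median of the 10 was 0.29 (0.09 scaled to ribosomal protein genes). KIFC1, a minus-end motor that gathers spindle poles, was at 9.83 and 9.14 in control and at 10.38 and 9.75 after trabectedin (0.58, SE 0.32, adjusted p = 0.493). KIF2C, which encodes MCAK, a kinesin that takes microtubules apart at the centromere, was at 10.30 and 9.70 in control and at 10.83 and 10.25 after trabectedin (0.54, SE 0.29, adjusted p = 0.483). In both genes trabectedin replicate 2 lay just below control replicate 1. Between arrays of the same number the differences were 0.55 and 0.60 for KIFC1 and 0.53 and 0.55 for KIF2C. With the replicate number as a block the limma adjusted p was 0.0416 for KIFC1 and 0.0465 for KIF2C. KIF11, which encodes Eg5, the motor that separates the spindle poles, was at 12.46 and 12.07 in control and at 12.78 and 12.36 after trabectedin (0.30, SE 0.21, adjusted p = 0.567). KIF4A, a chromosome-bound motor, was the kinesin with the lowest difference, at 11.04 and 10.37 in control and 10.84 and 10.21 after trabectedin (-0.18, SE 0.32, adjusted p = 0.811), and it is also the longest gene of the list. Its difference was 0.16 without control replicate 1 and 0.14 without trabectedin replicate 2. The motors KIF14, KIF15, KIF18A, KIF20A, KIF20B and KIF23 ranged from 0.01 to 0.48.

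The 7 centromere and kinetochore genes also overlapped throughout, where 35.8% of all genes were apart upward and 13.5% downward. Replicate 2 was below replicate 1 in both groups in all 7, against 25.4% of all genes. The median of the 7 was 0.30. SPC25, a subunit of the NDC80 complex that grips microtubules, was at 8.63 and 8.13 in control and at 9.03 and 8.61 after trabectedin (0.44, SE 0.24, adjusted p = 0.485). The other subunits of this complex, NDC80, NUF2 and SPC24, differed by 0.32, 0.36 and 0.24, so that the 4 differences had the same sign, which they kept when scaled to ribosomal protein genes. CENPE, a kinesin of the kinetochore that carries chromosomes to the spindle equator, was at 11.99 and 11.21 in control and at 11.72 and 11.47 after trabectedin, a difference of -0.01 (95% interval -0.75 to 0.74). CENPA, the histone of the centromere, differed by 0.22 and CENPF by 0.30.

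The 7 genes of spindle microtubule-associated proteins ranged from -0.19 to 0.69, with a median of 0.14 (-0.07 scaled to ribosomal protein genes). CKAP2, a spindle protein that promotes microtubule growth, was at 9.51 and 9.28 in control and at 10.39 and 9.78 after trabectedin, with the groups apart (0.69, SE 0.24, adjusted p = 0.318). CKAP5, which encodes the microtubule polymerase ch-TOG, was at 12.94 and 12.57 in control and at 12.72 and 12.40 after trabectedin (-0.19, SE 0.19, adjusted p = 0.671). TPX2, an activator of Aurora A, and HMMR, its partner at spindle poles, differed by -0.06 (SE 0.27) and -0.08 (SE 0.18), and both differences were above 0 without control replicate 1 and without trabectedin replicate 2. NUSAP1, PRC1 and DLGAP5, which bundle spindle microtubules, differed by 0.23, 0.18 and 0.14 with overlapping groups.

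Of the 3 cytokinesis genes, 2 had their groups apart upward, as did 35.8% of all genes. ANLN encodes anillin, the scaffold of the contractile ring. It was at 12.01 and 12.17 in control and at 12.66 and 12.61 after trabectedin (0.54, SE 0.12, 95% interval 0.24 to 0.85, adjusted p = 0.161), again wider than the gaps within its groups. ECT2, the exchange factor that activates RHOA at the cell equator, differed by 0.28 (SE 0.14, adjusted p = 0.457) with its groups apart. RACGAP1, a subunit of centralspindlin, differed by 0.30 with overlapping groups.

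In condensin, which compacts chromosomes, the subunits differed from one another. NCAPG, a subunit of condensin I, had the highest difference of the 57 genes, at 11.04 and 10.58 in control and at 11.93 and 11.34 after trabectedin (0.83, or 1.77-fold, SE 0.27, 95% interval 0.13 to 1.52, adjusted p = 0.284). The core ATPases SMC2 and SMC4 differed by 0.37 and 0.27, NCAPH by 0.21 and NCAPD2, another condensin I subunit, by -0.01, all 4 with overlapping groups. MKI67, which encodes the proliferation marker Ki-67 on the surface of mitotic chromosomes, was at 14.68 and 13.84 in control and at 15.14 and 14.40 after trabectedin (0.51, SE 0.38, adjusted p = 0.587). Its control arrays were 0.84 apart, the widest such gap of the list.

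**Figure D2:**
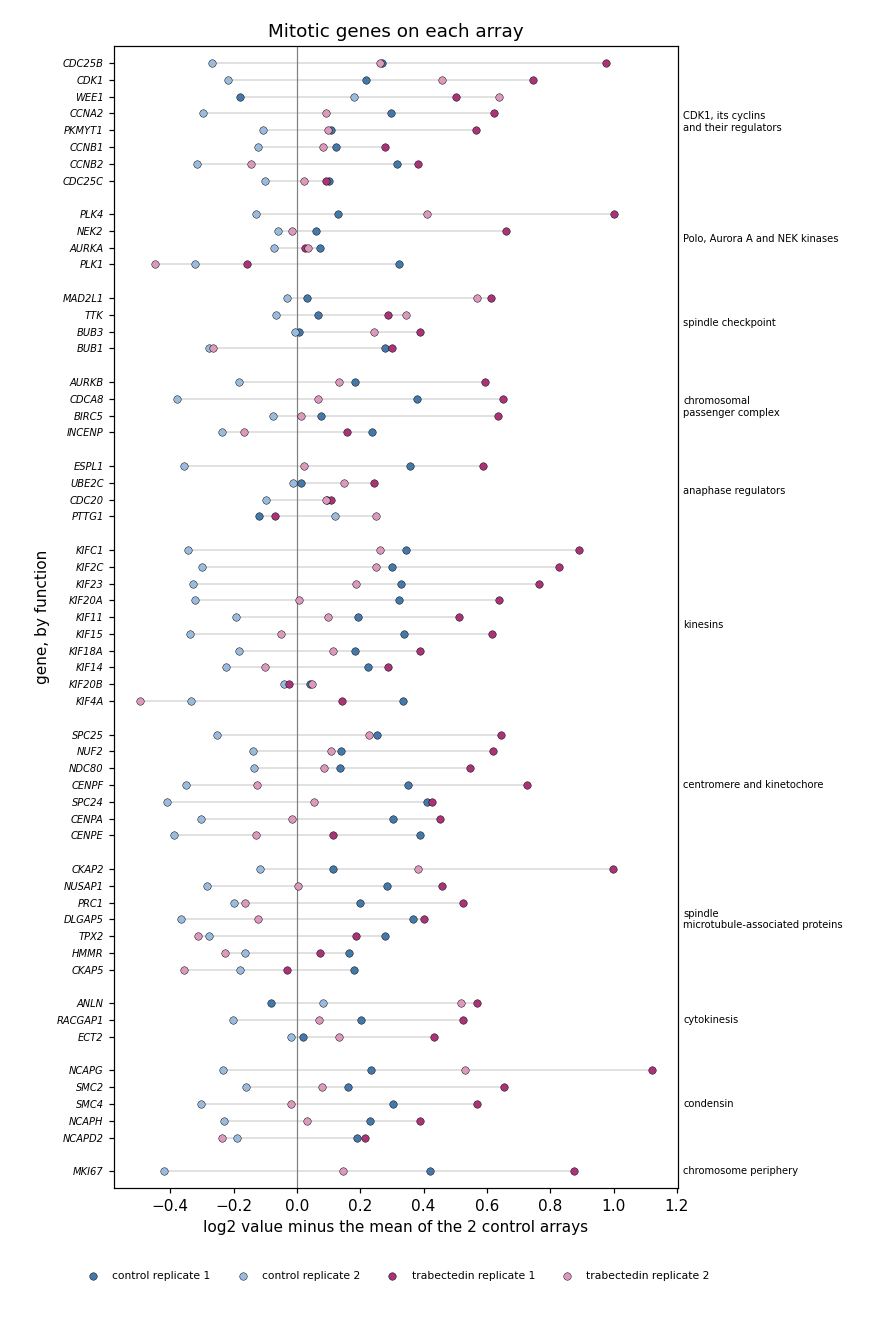
Log2 value of each array minus the mean of the 2 control arrays for the 57 mitotic genes, grouped by function. In most genes replicate 1 (dark points) lies to the right of replicate 2 (light points) in both groups. Trabectedin replicate 2 lies to the right of control replicate 1 in 13 of 57 genes (22.8%, against 68.3% of all genes).

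The arrays of one group differed in a direction that both groups mostly shared. The median gap between them was wider than the median treatment difference of 0.30. Replicate 2 lay below replicate 1 in 54 of the 57 mitotic genes in control, in 52 after trabectedin and in 51 in both, whereas 25.4% of all genes were lower in replicate 2 in both groups. The median gap was -0.41 in control and -0.46 after trabectedin, against 0.05 and 0.02 over all genes. The larger of a gene's 2 gaps exceeded its treatment difference in 47 of the 57 genes (82.5%, against 63.9% of all genes). A gap is between single arrays and the treatment difference is between means of 2 arrays, so the measures are unlike. The medians of the 57 levels were 10.71 and 10.35 in control and 10.95 and 10.49 after trabectedin, so that trabectedin replicate 2 stood below control replicate 1.

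The treatment difference therefore depended on which arrays were set against each other. Trabectedin replicate 1 exceeded control replicate 1 in 47 of 57 genes, with a median of 0.28, and trabectedin replicate 2 exceeded control replicate 2 in 51, with a median of 0.26. Of all 22411 genes, 15739 (median 0.12) and 14285 (median 0.07) did so. Across replicate numbers, trabectedin replicate 1 exceeded control replicate 2 in 56 genes, with a median of 0.70. Trabectedin replicate 2 exceeded control replicate 1 in 13 (22.8%), with a median of -0.08. Of all genes, 12816 (median 0.04) and 15315 (68.3%, median 0.13) did so. The median of the 57 differences was 0.06 without control replicate 2 and 0.07 without trabectedin replicate 1, both under the median of all genes (0.13 and 0.10). The median of the 57 was 0.45 without control replicate 1 and 0.51 without trabectedin replicate 2, both above the median of all genes (0.06 and 0.08). The number of mitotic genes at least 1.5-fold higher was 3, 1, 18 and 22 in the same order.

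Few genes departed from this pattern of arrays. WEE1 and PTTG1 were higher in replicate 2 of both groups, ANLN in control, and TTK, AURKA and KIF20B after trabectedin. The gaps were largest for MKI67 (-0.84 in control and -0.73 after trabectedin) and for CENPF (-0.70 and -0.85), a kinetochore protein of late G2. They were small for MAD2L1 (-0.06 and -0.05), for BUB3 (-0.01 and -0.15) and for UBE2C (-0.02 and -0.10), all 3 among the genes with their groups apart. Across the 57 genes the control gap and the trabectedin gap had a Pearson correlation of 0.69, against 0.56 across all genes. This is a description across genes, which are not independent replicates.

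**Figure D3:**
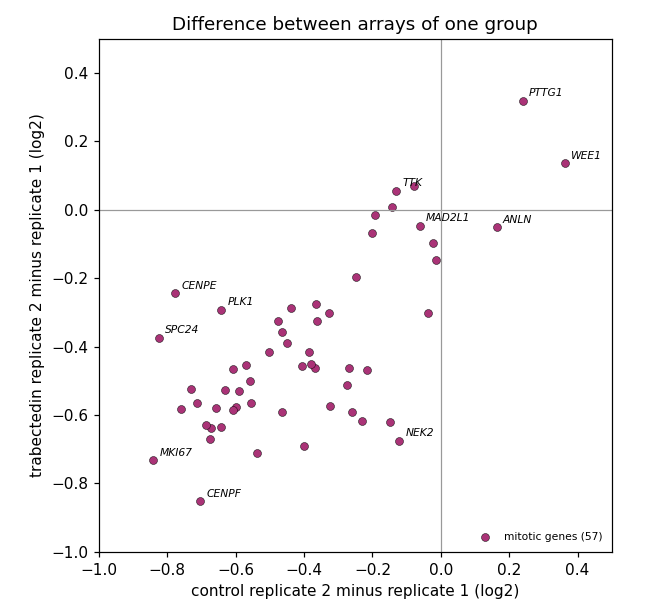
Difference of replicate 2 minus replicate 1 in control (horizontal, log2) and after trabectedin (vertical, log2), with 1 point for each of the 57 mitotic genes. At the lower left, where replicate 2 is lower in both groups, lie 51 genes, and WEE1 and PTTG1 lie in the upper right.

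Gene length was set beside the differences, since long genes were lower than short ones across the arrays. The mitotic genes had a median length of 29.2 kb (RefSeq, GRCh38.p14), against 18.2 kb for all genes, and only CKAP5, KIF15 and KIF4A exceeded 100 kb. Their differences were -0.19, 0.28 and -0.18. The 24 mitotic genes under 25 kb had a median difference of 0.32, the 19 of 25 to 50 kb 0.30 and the 11 of 50 to 100 kb 0.25, against 0.13, 0.11 and 0.04 for all genes of these lengths. Genes at least 1.5-fold lower were 26.0% of all genes over 100 kb and 0.608% of those under 25 kb. Spearman's rho between length and log2 difference was -0.29 across the 57 genes and -0.31 across 22407 genes, as a description over genes.

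The rest of the mitotic machinery was read from 6 further lists of 113 genes, of which 103 were measured. No gene of these passed the test in either direction (limma), and at an unadjusted p under 0.05 there were 22 higher (21.4%, against 7.3% of all genes) and 10 lower (against 6.7%). With the replicate block 8 were called higher (7.77%, against 2.23% of all genes) and 9 lower (8.74%, against 3.98%). Among them were STAG1 (limma adjusted p = 0.0194), CLASP1 (0.02) and ESCO2 (0.0189). By the 1.5-fold rule 8 were higher (7.77%, against 2.8% of all genes) and 9 lower (8.74%, against 4.63%), and the groups were apart upward in 41 (39.8%, against 35.8% of all genes) and downward in 15 (14.6%, against 13.5%). All 9 lower genes were among the 18 that exceed 100 kb (50%, against 26.0% of all genes over 100 kb). STAG1, a subunit of cohesin, the ring that holds sister chromatids, is 416 kb long and was at 11.02 and 10.90 in control and at 7.67 and 8.77 after trabectedin, 6.68-fold lower (adjusted p = 0.0841). CLASP1 and CLASP2, which stabilize microtubule plus ends, are 312 and 222 kb long and had differences of -1.48 (adjusted p = 0.0802) and -1.01 (adjusted p = 0.0923). HDAC8, the deacetylase of the cohesin subunit SMC3, and TFDP2, a partner of E2F factors, are 243 and 205 kb long and had differences of -0.91 and -0.97. With 1 trabectedin array left out, the difference of CLASP1 was -1.24 without replicate 1 and -1.71 without replicate 2. That of STAG1 was -2.19 and -3.29 in the same order.

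Of the genes of these lists under 100 kb, 5 of 32 under 25 kb, 5 of 30 between 25 and 50 kb and 6 of 23 between 50 and 100 kb had a difference below 0, against 15 of 18 over 100 kb. The 8 that were at least 1.5-fold higher were all under 100 kb. ESCO2, the acetyltransferase that establishes cohesion, was at 10.68 and 9.71 in control and at 11.75 and 10.96 after trabectedin (1.16, SE 0.42, adjusted p = 0.339). TUBGCP4, a subunit of the γ-tubulin ring that nucleates microtubules, differed by 1.02 (SE 0.34, adjusted p = 0.301), and FBXO5, which encodes EMI1, an inhibitor of the anaphase-promoting complex, by 0.71 (SE 0.20, adjusted p = 0.231). ANAPC4 and CDC23, subunits of that complex, differed by 0.53 and 0.51. At the kinetochore, CENPQ was at 8.52 and 8.57 in control and at 9.29 and 9.41 after trabectedin (0.80, SE 0.11, adjusted p = 0.0853), and ZWINT and SKA1 differed by 0.79 and 0.53. Condensin II, the relative of condensin I that is nuclear throughout the cell cycle, had differences of 0.13 to 0.28 in NCAPD3, NCAPG2 and NCAPH2, of which the last 2 were below 0 when scaled to ribosomal protein genes.

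Among the regulators of late cell cycle transcription, which include the MuvB subunits, B-MYB and FOXM1, 2 of 13 genes were apart upward (15.4%, against 35.8% of all genes) and 3 downward (23.1%, against 13.5%), and the median was 0.03 (-0.18 scaled to ribosomal protein genes). LIN37, a MuvB subunit, differed by 0.39 (SE 0.12, adjusted p = 0.259) and RBL2, the pocket protein p130 of the DREAM complex, by -0.57 (SE 0.26, adjusted p = 0.426).

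**Figure D4:**
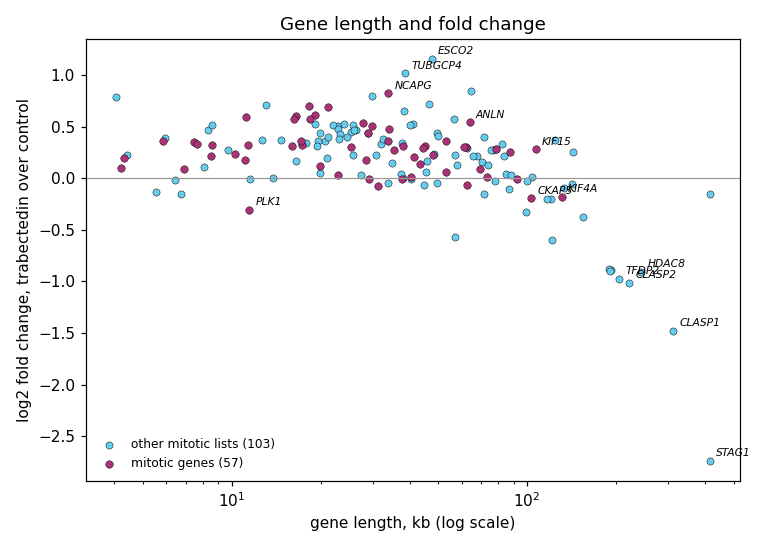
Log2 fold change of trabectedin over control against gene length (kb, log axis) for the 57 mitotic genes and the 103 genes of the other mitotic lists. The 9 genes at least 1.5-fold lower are all over 100 kb and belong to the other lists, while 54 of the 57 mitotic genes are under 100 kb.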

How the data were processed

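RNA of U266 cells was hybridized to HTA 2.0 arrays, and the authors made the deposited log2 values by RMA in Affymetrix Expression Console. The software version, the annotation and the rescaling that brings some values above 16 are each not given in the sources used here. The number of arrays limits the precision.

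Of 70523 probe sets, 23781 carried 1 gene symbol, and those with several (1543) or none (45199) were left out. Through RefSeq (GRCh38.p14), 23777 were matched, giving 22411 genes. Groups were compared by limma 3.58.1 (lmFit, eBayes, no block) in R 4.3.3 with Benjamini-Hochberg adjustment over all genes. The comparison was run again without each array, with the replicate number as a block, with other scaling, filters and probe set rules, with a mean-variance trend and with the methods' t-test. The arrays are labelled as biological replicates.

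Members and lists were chosen with earlier results of these data known. Genes named with full values were those of at least 1.5-fold, the 10 highest and 5 lowest, the largest difference in each function group, and 9 standing examples such as CDK1 and KIF11, then up to 3 genes of each further list. Other genes were added to complete a complex or the pattern of arrays.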

Additional observations from a re-analysis of the deposited data

How the results depend on the processing

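Of the 22411 genes, limma called 0, and leaving out each array in turn gave 0 to 228, the highest count being without trabectedin replicate 2 (5 higher and 223 lower). With the replicate number as a block, 1392 genes were called (499 higher and 893 lower), among them 8 mitotic genes, all higher: CDC25B, CDK1, CKAP2, KIF2C, KIFC1, MAD2L1, NCAPG and PLK4, with a smallest adjusted p of 0.0239. Same-numbered arrays deviated together (r = 0.56 across all genes), and the design text speaks of separate experiments without saying which arrays share one. The methods' t-test gave 2392 genes unadjusted and 0 after Benjamini-Hochberg adjustment. The count of mitotic genes at least 1.5-fold higher, 6, was 1 to 22 without each array in turn, 3 with quantile normalization repeated, 1 when scaled to ribosomal protein genes and 0 at 2-fold. The count lower was 0, and 0 to 1 without each array in turn, the 1 being PLK1 at -0.62 without control replicate 2. The median of the mitotic genes ranged from 0.06 to 0.51 without each array in turn. When scaled to ribosomal protein genes 12 of the 57 mitotic differences turned their sign, with quantile normalization repeated 3, and 27 spanned 0 over the fits without each array in turn. Among the genes named by the rule, the difference turned its sign when scaled to ribosomal protein genes in CCNB1 (-0.026), AURKA (-0.18), NCAPH2 (-0.037) and NCAPG2 (-0.077), and with quantile normalization repeated in AURKA (-0.018). Among the same genes it spanned 0 without each array in turn in TPX2 (-0.34 to 0.22), HMMR (-0.24 to 0.086), KIF4A (-0.51 to 0.16), PLK1 (-0.62 to 0.018), ESPL1 (-0.053 to 0.66), AURKA (-0.043 to 0.10), CENPE (-0.40 to 0.38), NCAPD3 (-0.12 to 0.68) and NCAPG2 (-0.31 to 0.56). The cause of these shifts was not tested. A filter at the median level, the mean of a gene's probe sets and a mean-variance trend each called 0 genes. The filter and the trend leave every difference as it is, so they cannot turn a sign. The mean of probe sets can change only genes with several, such as KIFC1 (0.41), and turned no sign among the named genes.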
